A study of Mus musculus with 4 samples.

Results

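Acute-phase protein genes encode secreted plasma proteins whose output climbs in infection, injury and other inflammation. The liver is their main source, and fat tissue makes several of them too. In liver cells, interleukin 6 acting through the factor STAT3, interleukin 1 acting through NF-κB, and factors of the C/EBP family switch these genes on, and glucocorticoids are known to strengthen that response. The genes described here are 7 of the 15892 gene symbols listed in the deposited tables: Saa3, Lcn2, Hp, Serpina3n, A2m, Orm1 and Cp. They were chosen by their FPKM values in these same tables and then taken by symbol, so their levels and differences below are a description without a test. All 7 are listed in all 3 tables.

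The cells were cultured adipose progenitors of C57BL/6 mice, sorted with magnetic beads from subcutaneous or visceral fat (SAT or VAT in the labels, without saying which kind came from which depot) for either CD137, a marker of beige fat precursors, or PDGFRα (CD140), a general progenitor marker. All groups received an adipogenic cocktail of unstated composition, and were then given PBS, or dexamethasone (DEX) at 1 µM; dexamethasone is a synthetic glucocorticoid. The labels give 1 sample for each of the 4 groups, with no age and no word on pooling of animals, so every difference below stands without replicates and without a p-value. By the series title the study asked how glucocorticoids steer PDGFRα+ progenitors towards white fat cells.

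Values are FPKM, fragment counts scaled to transcript length and library size, in 6 columns of 3 tables. A table for each cell type sets DEX beside PBS (its own table), and another sets the DEX libraries of both cell types side by side (the between-type table). Each column was kept as its own library, since those labelled DEX differ between tables. The titles of the deposited sheets number both own-table DEX columns 1 and both between-type DEX columns 2, with CD137+ PBS numbered 1 and PDGFRα+ PBS numbered 2, so the columns of a label may be separate libraries. The labels name no such second DEX sample. The PDGFRα+ column labelled DEX in the between-type table stood 2-fold or more from PDGFRα+ PBS at only 21 of 12450 genes, whereas the column of that label in the own table did so at 2771 of 13174. The CD137+ column labelled DEX stood apart from CD137+ PBS at 126 of 12298 genes in the own table and at 1483 of 12422 in the between-type table. Of 16 genes that glucocorticoids are known to induce, 12 were lower and none higher with the DEX label in the PDGFRα+ own table, so directions below are those of the labels and "the library labelled DEX" is written throughout. Sequencing depth is unknown, and in bulk RNA fewer cells of a type and less RNA per cell cannot be told apart.

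Promoter sequence was available for 4 of the 7 genes (Saa3, Serpina3n, Lcn2 and Cp) from RefSeq (build GRCm38.p6). Shown here are the 250 bases before the start of the pair with the highest levels, Saa3 and Serpina3n, and of Lcn2, whose levels went a different way in PDGFRα+ cells. They read 5′ to 3′ along the gene, and capitals mark matches, on either strand, to 4 motifs: TTNNGNAA for C/EBP factors, TTCNNNGAA for STAT factors, ACANNNTGT for the glucocorticoid receptor and, for NF-κB, GGG and TTTCC with any 2 bases between them. The Saa3 window lies at chr7:46715677-46715926 on the minus strand, that of Serpina3n at chr12:104406458-104406707 on the plus strand, and that of Lcn2 at chr2:32387740-32387989 on the minus strand.
Saa3: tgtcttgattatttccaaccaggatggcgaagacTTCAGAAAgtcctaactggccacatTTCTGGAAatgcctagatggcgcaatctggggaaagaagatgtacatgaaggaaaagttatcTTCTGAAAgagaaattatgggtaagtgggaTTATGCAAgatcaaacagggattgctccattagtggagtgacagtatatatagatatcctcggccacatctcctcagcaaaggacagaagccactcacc
Serpina3n: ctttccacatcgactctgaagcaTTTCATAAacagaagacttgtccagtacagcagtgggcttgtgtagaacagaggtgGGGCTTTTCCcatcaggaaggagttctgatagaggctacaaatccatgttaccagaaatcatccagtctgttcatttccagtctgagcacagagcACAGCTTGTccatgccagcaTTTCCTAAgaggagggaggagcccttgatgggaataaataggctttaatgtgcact
Lcn2: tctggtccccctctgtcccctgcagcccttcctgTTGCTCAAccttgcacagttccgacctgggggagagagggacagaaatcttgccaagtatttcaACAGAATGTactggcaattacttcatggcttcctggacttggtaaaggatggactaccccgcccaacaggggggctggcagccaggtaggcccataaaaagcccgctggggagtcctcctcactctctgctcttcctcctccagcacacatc

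The Saa3 window holds 4 matches to the C/EBP letters and none to the other 3 motifs. The C/EBP letters are common, present in 36.8% of 32851 promoter windows of the same length, but 4 or more matches stood in 0.591% of them. Serpina3n holds 2 C/EBP matches, a match to the NF-κB letters (1.41% of windows) and a match to the glucocorticoid receptor letters (5.84% of windows). Lcn2 holds 1 C/EBP match and 1 match to the glucocorticoid receptor letters, ACAGAATGT, while each of the 2 annotated starts of Cp has 1 C/EBP match. The STAT letters, found in 7.02% of windows, occur in none of these. The matches are letters only and do not show that a factor binds there.

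Across the 6 libraries, 4 held these transcripts at high levels and 2 held far less. The 7 genes together took 3.48% of summed FPKM in CD137+ PBS, 3.26% in the CD137+ library labelled DEX of the own table, 5.69% in PDGFRα+ PBS and 6.81% in the PDGFRα+ library labelled DEX of the between-type table. The low libraries were the PDGFRα+ library labelled DEX of its own table, at 0.609%, and the CD137+ library labelled DEX of the between-type table, at 0.282%. Both low libraries carry the DEX label, but so do 2 of the 4 high ones.

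**Figure D1:**
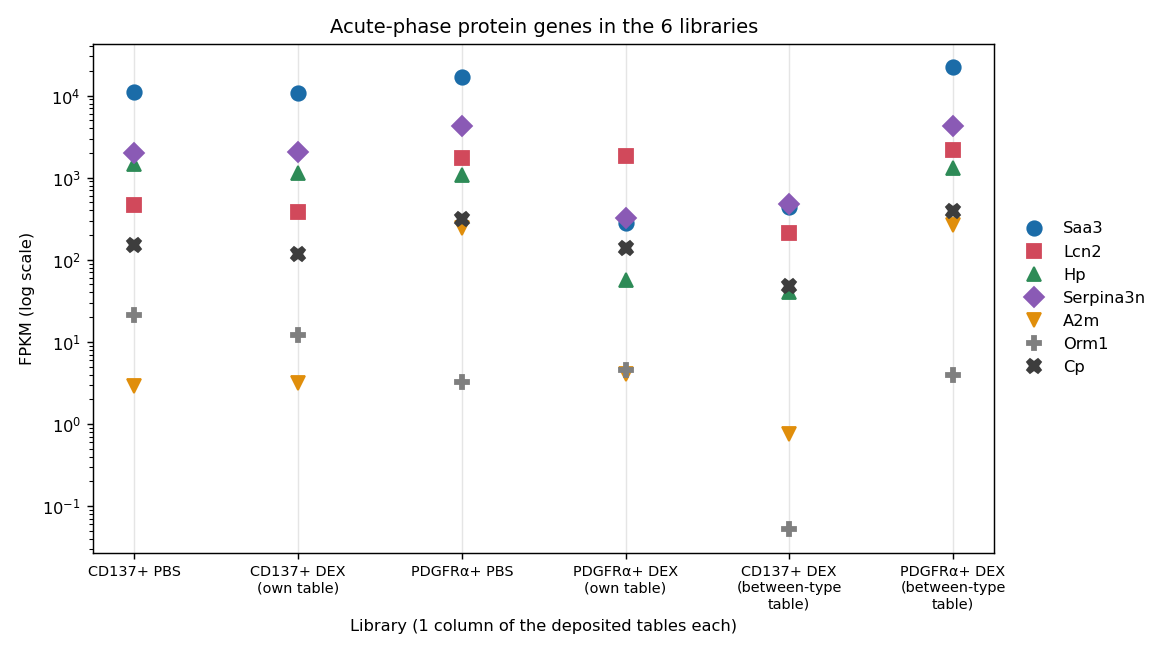
FPKM (log axis) of the 7 acute-phase protein genes in each of the 6 libraries, 1 point per gene and library, with no replicates. Saa3 is the top point in 4 libraries, at 10892 to 22241 FPKM, and lies at 282 and 434 FPKM in the PDGFRα+ own-table and CD137+ between-type libraries labelled DEX.

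Saa3 (ENSMUSG00000040026, GRCm38 chromosome 7, 46711998 to 46715700, minus strand) encodes serum amyloid A3, the serum amyloid A form that mouse fat and other tissues outside the liver make. It stood at 10919 FPKM in CD137+ PBS, 10892 in the CD137+ library labelled DEX of the own table, 16979 in PDGFRα+ PBS, 282 in the PDGFRα+ library labelled DEX of the own table, 434 in the CD137+ library labelled DEX of the between-type table and 22241 in the PDGFRα+ library labelled DEX of that table. It was the highest of all listed genes in the 4 high libraries and ranked 217 and 148 in the low ones. The gap between the groups of libraries was 25.1-fold, from 434 to 10892 FPKM, and much wider than the spread within either. Saa3 alone made up 68.9% to 74.5% of the members' summed FPKM in the high libraries, against 10.8% in the PDGFRα+ and 35.6% in the CD137+ low library.

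**Figure D2:**
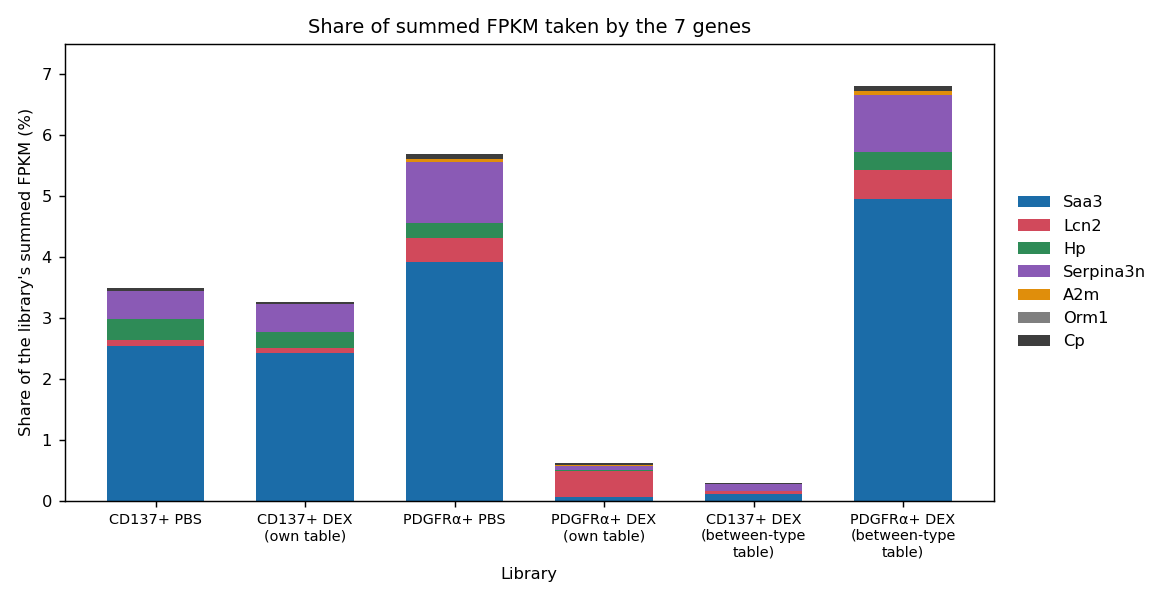
Share of each library's summed FPKM (percent) taken by the 7 genes, stacked by gene, 1 bar per library. Saa3 fills most of the 4 tall bars, between 2.43% and 4.95% of the library, while Lcn2, at 0.421%, is the widest segment of the PDGFRα+ own-table library labelled DEX.

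The members that handle iron and haem differed in their pattern. Hp (ENSMUSG00000031722, chromosome 8, 109575128 to 109579172) encodes haptoglobin, which captures free haemoglobin. It stood at 1483 FPKM in CD137+ PBS, 1126 in its own-table library labelled DEX, 1076 in PDGFRα+ PBS, 56.2 in its own-table library labelled DEX, and 41.0 (CD137+) and 1299.5 (PDGFRα+) in the between-type table. Its pattern was that of Saa3, with the lowest high value 19.1-fold above the highest low value.

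Lcn2 (ENSMUSG00000026822, chromosome 2, 32384633 to 32388252) encodes lipocalin 2, which starves bacteria of iron by binding their siderophores. It stood at 467 FPKM in CD137+ PBS, 381 in the CD137+ own-table library labelled DEX, 1732 in PDGFRα+ PBS, 1814 in the PDGFRα+ own-table library labelled DEX, and 214 (CD137+) and 2155 (PDGFRα+) in the between-type table. Its levels followed the cell type and not the split seen for Saa3: all 3 PDGFRα+ libraries were above all 3 CD137+ libraries. In the PDGFRα+ own-table library labelled DEX it was the highest member, ranked 18 of all genes, with Saa3 at 282 FPKM. Markers of neutrophils, which store lipocalin 2, summed to 88.3 FPKM in that library and to 3.18 to 8.92 FPKM in the other 5. The sum came mostly from the lactoferrin gene Ltf (59.4 FPKM, 4.79 with PBS) and the calprotectin subunit gene S100a8 (22.3, 0.209 with PBS). The neutrophil genes Ly6g, Mpo, Elane and Ngp are not listed in any table. Their part in the Lcn2 level was not tested.

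Cp (ENSMUSG00000003617, chromosome 3, 19957054 to 20009145) encodes ceruloplasmin, the copper-carrying enzyme that oxidises iron as it leaves cells. Its values were 149 FPKM in CD137+ PBS, 119 in the CD137+ own-table library labelled DEX, 318 in PDGFRα+ PBS, 138 in the PDGFRα+ own-table library labelled DEX, and 47.6 (CD137+) and 388 (PDGFRα+) in the between-type table. It had the narrowest spread of the 7, 8.15-fold from lowest to highest, and the low PDGFRα+ library at 138 FPKM did not differ much from the CD137+ libraries at 119 and 149. The 3′ part of Cp overlaps Hps3 on the other strand over 13201 bases, and the deposited locus of Cp spans both genes. Hps3 itself stood at 5.39 to 7.53 FPKM. Whether reads were assigned by strand is not given in the sources used here.

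Of the protease inhibitors, Serpina3n (ENSMUSG00000021091, chromosome 12, 104406729 to 104414329), which encodes a secreted inhibitor of serine proteases, had the pattern of Saa3 with a smaller range. It stood at 1981 FPKM in CD137+ PBS, 2083 in the CD137+ own-table library labelled DEX, 4306 in PDGFRα+ PBS, 325 in the PDGFRα+ own-table library labelled DEX, and 481 (CD137+) and 4257 (PDGFRα+) in the between-type table. It was the highest member in the low CD137+ library. Of the 50-base windows along its transcript, 6.75% also occur in its listed Serpina3 neighbours, so a small part of its reads could be split among copies.

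A2m (ENSMUSG00000030111, chromosome 6, 121635376 to 121679227) encodes alpha-2-macroglobulin, which traps proteases of many kinds and is a major acute-phase protein in the rat. It stood at 2.92 FPKM in CD137+ PBS, 3.14 in the CD137+ own-table library labelled DEX, 242 in PDGFRα+ PBS, 4.03 in the PDGFRα+ own-table library labelled DEX, and 0.759 (CD137+) and 266 (PDGFRα+) in the between-type table. High A2m was thus seen in 2 libraries only, PDGFRα+ PBS and the PDGFRα+ library that is nearly the same as it. All 3 CD137+ libraries were low, those with high Saa3 included.

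Orm1 (ENSMUSG00000039196, chromosome 4, 63344560 to 63348163) encodes alpha-1-acid glycoprotein, a plasma carrier of lipophilic molecules, and was the lowest member in 3 of the libraries. It stood at 21.4 FPKM in CD137+ PBS, 12.1 in the CD137+ own-table library labelled DEX, 3.28 in PDGFRα+ PBS, 4.58 in the PDGFRα+ own-table library labelled DEX, and 0.0519 (CD137+) and 3.93 (PDGFRα+) in the between-type table. The highest values were in the CD137+ own table and the lowest in the CD137+ between-type library. The 3 PDGFRα+ libraries lay between them, within 3.28 to 4.58 FPKM. Only the CD137+ own-table libraries thus stood the other way round from A2m and Lcn2. Of the 50-base windows of Orm1, 20.4% also occur in Orm2, so its values are uncertain. Orm2 stood at 3.80 and 2.87 FPKM in the CD137+ own table and at 0.288 to 2.25 FPKM in the other 4 libraries.

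In the comparisons below, each pair of columns was first brought to a median ratio of 1. Differences are in log2(FPKM + 1), a scale that shrinks the differences of weakly expressed genes. Only genes that reached 1 FPKM in the higher column were tested, and those that differed by a factor of 2 are called higher or lower. The shift removed was 0.06 log2 units in the CD137+ own table, 0.28 in the PDGFRα+ own table and -0.24 in the between-type table.

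In CD137+ cells the own table showed hardly any difference between the library labelled DEX and PBS. None of the 7 members was 2-fold apart, where 0.407% of 12298 genes were higher and 0.618% lower. The members' median difference was -0.35 (0.00 over all genes tested), and the values ran from -0.82 for Orm1 to 0.04 for A2m. Saa3 was level at -0.06, and Hp (-0.45), Cp (-0.38) and Lcn2 (-0.35) lay a little lower. In the authors' deposited table Cp was the 1 member with q under 0.05 (q = 0.00121), as were 3.71% of 14197 listed symbols, from a test on 1 library per group.

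With the other CD137+ column labelled DEX, set across tables, all 7 members were at least 2-fold lower than in CD137+ PBS, where 7.1% of 12422 genes were lower and 4.84% higher. The differences were -5.29 for Hp, -4.80 for Saa3, -4.48 for Orm1, -2.19 for Serpina3n, -1.77 for Cp, -1.27 for Lcn2 and -1.24 for A2m. The same label and the same PBS library therefore gave 0 or 7 lower members, depending on the column.

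In PDGFRα+ cells the own table had 5 of 7 members lower in the library labelled DEX and none higher, where 11.2% of 13174 genes were lower and 9.88% higher. Saa3 differed by -6.18 log2 units, A2m by -5.84, Hp by -4.51, Serpina3n by -4.00 and Cp by -1.47. Only 1 gene of the table had a lower difference than Saa3 and only 2 a lower one than A2m. Lcn2 (-0.21) and Orm1 (0.16) stayed within 2-fold. The members' median was -4.00, against 0.01 over all genes tested. The authors' deposited table gives q under 0.05 to 5 members and to 15% of 14998 listed symbols, with q = 0.972 for Lcn2 and q = 0.784 for Orm1.

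With the PDGFRα+ column labelled DEX of the between-type table, none of the 7 stood 2-fold from PBS, where 0.0562% of genes were higher and 0.112% lower. Their differences ran from -0.05 for Serpina3n to 0.35 for Saa3, with a median of 0.24. In PDGFRα+ cells the members' median thus changed sign with the column used, from -4.00 to 0.24, while in CD137+ cells it was negative with both (-0.35 and -2.19).

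**Figure D3:**
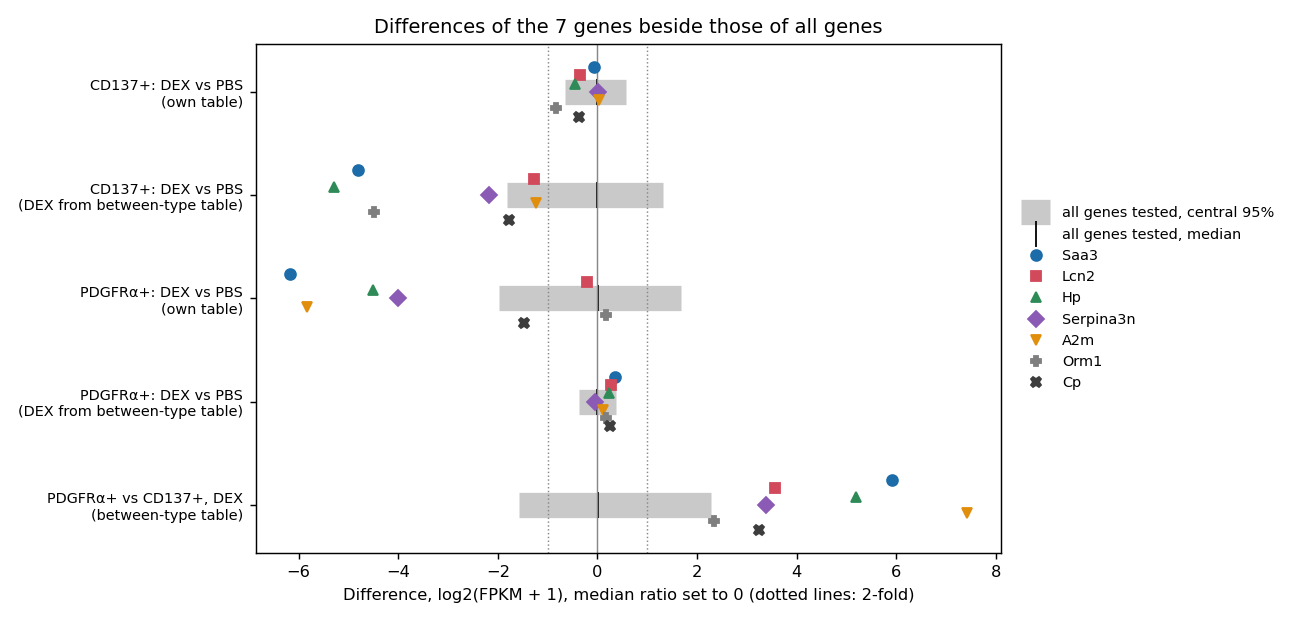
Difference in log2(FPKM + 1) of each of the 7 genes in 5 comparisons, 1 symbol per gene, with the central 95% and the median of all genes tested as a grey bar and a black tick. In PDGFRα+ cells 5 genes lie between -6.18 and -1.47 with the own-table column labelled DEX, and all 7 lie between -0.05 and 0.35 with the other column of that label.

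Between the cell types, all 7 members were at least 2-fold higher in the PDGFRα+ than in the CD137+ library labelled DEX of the between-type table, where 12% of 12907 genes were higher and 7.55% lower. A2m differed by 7.42 log2 units, more than any other gene of the table, Saa3 by 5.92, Hp by 5.19, Lcn2 by 3.57, Serpina3n by 3.39, Cp by 3.24 and Orm1 by 2.33. The members' median was 3.57, against 0.02 over all genes tested. The authors' deposited table gives q under 0.05 to all 7, and to 13.2% of 14670 listed symbols.

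The PBS libraries of both cell types, set across tables, differed less. There 4 of 7 members were higher in PDGFRα+ cells and 1 lower, where 8.24% and 5.39% of 12473 genes were. A2m was higher by 6.09, Lcn2 by 2.05, Serpina3n by 1.28 and Cp by 1.24. Orm1 was lower, at -2.25, and Saa3 (0.80) and Hp (-0.30) were within 2-fold.

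Other pairings of the columns labelled DEX gave other directions between the cell types. With both own-table columns, 1 member, Lcn2 (2.16), was higher in the PDGFRα+ library and 4 were lower, where 6.76% of 12499 genes were higher and 7.32% lower. The lower ones were Saa3 (-5.35), Hp (-4.39), Serpina3n (-2.76) and Orm1 (-1.31), while A2m (0.22) and Cp (0.13) were within 2-fold. With the CD137+ own-table and the PDGFRα+ between-type column, the high libraries of that label, 5 members were higher and 1 lower, where 7.86% of 12526 genes were higher and 5.53% lower. Here A2m (6.16), Lcn2 (2.66), Cp (1.86), Serpina3n (1.20) and Saa3 (1.20) were higher and Orm1 (-1.27) lower, nearly as between the PBS libraries. Lcn2 was higher in PDGFRα+ cells in every one of these pairings.

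The low libraries were alike in some members and not in others. Between the PDGFRα+ own-table and the CD137+ between-type library labelled DEX, Saa3, Hp and Serpina3n were within 2-fold (0.60, -0.47 and 0.55), while Lcn2 (-3.10), Orm1 (-2.41), Cp (-1.54) and A2m (-1.53) were lower in the CD137+ library, where 5.39% of 12644 genes were lower and 1.47% higher. By the mean absolute difference of centred log2 levels over the 6 libraries, Saa3 and Hp were the closest pair of members (0.50) and A2m and Orm1 the farthest (2.97).

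Many of the other acute-phase genes were low in the libraries where Saa3 was low. They were taken from a list of 32 without the members, which was not limited to genes that rise in inflammation. Of 19 measured at 1 FPKM or more in the PDGFRα+ own table, 13 were lower and 2 higher in the library labelled DEX (median -1.90). The central complement gene C3 stood at 1935 FPKM with PBS and 89.2 in that library, the complement C1 inhibitor gene Serping1 at 1587 and 135, and complement factor B, Cfb, at 124 and 14.5. Trf, which encodes the iron carrier transferrin, stood at 75.7 and 6.14 FPKM, and Lbp, which encodes the lipopolysaccharide-binding protein, at 168 and 15.9. Of 19 in the between-type comparison, 13 were higher in the PDGFRα+ library and 1 lower (median 2.34), with C3 at 41.4 and 2409 FPKM. In the CD137+ own table, none of 19 was 2-fold apart (median -0.15), and with the other CD137+ column labelled DEX 12 of 18 were lower and 1 higher (median -2.40). Ptx3, the gene of the long pentraxin made by stromal cells, was different in detail: it stood at 150.03 FPKM in the low PDGFRα+ library but at 501 in the low CD137+ library, close to CD137+ PBS at 505.

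**Figure D4:**
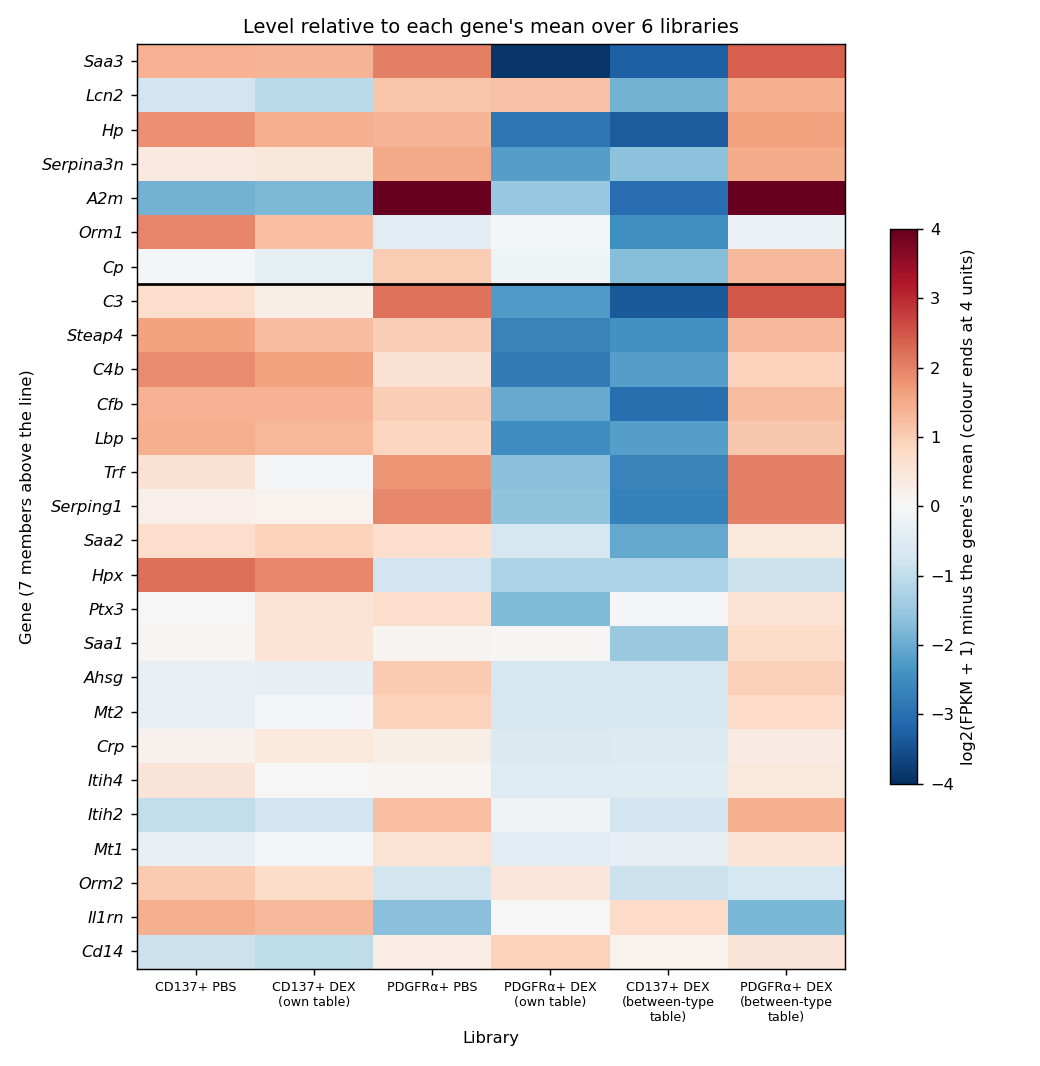
Level of the 7 members (above the line) and of acute-phase genes outside them that reached 1 FPKM, in the 6 libraries, as log2(FPKM + 1) minus the gene's own mean over the libraries, 1 cell per gene and library. Genes below the line are ordered by the difference between the 4 high and the 2 low libraries, with C3 at the top (89.2 and 41.4 FPKM in the low libraries, 522 or more in the others) and Cd14 at the bottom.

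Close relatives of the members were measured as well. Saa1 and Saa2, the serum amyloid genes of the liver, reached at most 6.14 and 6.88 FPKM and shared none of the 50-base windows of Saa3. Of the Serpina3 cluster, Serpina3m stood at 92.0 FPKM in CD137+ PBS, 101 in its own-table library labelled DEX, 177 in PDGFRα+ PBS, 3.45 in the PDGFRα+ own-table library labelled DEX, and 8.74 (CD137+) and 174 (PDGFRα+) in the between-type table, the split seen for Saa3. Serpina3c, Serpina3h and Serpina3i were lower in the same PDGFRα+ library (-3.54, -3.56 and -3.04), and in all 8 of 11 measured copies were lower and 1 higher. As members of a cluster with shared sequence, their values are uncertain. Heph, the membrane-bound relative of Cp, stayed between 22.8 and 29.4 FPKM in all 6 libraries.

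The levels of the inducing cytokines differed from those of the members in their order over the libraries. Il6, the main inducer of acute-phase genes in the liver, stood at 1.76 FPKM in CD137+ PBS and 14.7 in the own-table library labelled DEX, where Saa3 was level, and at 15.7 FPKM in the low CD137+ library. In PDGFRα+ cells it stood at 6.63 with PBS and 8.85 in the own-table library labelled DEX. Lif and Il11, of the same cytokine family, were higher in that library (2.46 and 20.4 FPKM, 1.03 and 12.8). They were also higher in the low CD137+ library than in CD137+ PBS (1.64 and 13.9 FPKM for Lif, 0.319 and 5.33 for Il11), so both genes had their highest values in the libraries where Saa3 was low. In the PDGFRα+ own table their shared receptor subunit gene Il6st was lower in the library labelled DEX, at 248 and 70.7 FPKM. The interleukin 1 receptor gene Il1r1 was lower in that library too (66.1 and 22.5). Between CD137+ PBS and the low CD137+ library both were within 2-fold (168 and 110 FPKM for Il6st, 96.0 and 67.6 for Il1r1). Of 17 measured cytokine and receptor genes, 6 were lower and 2 higher in the PDGFRα+ own table (median -0.39), and 1 of 16, Il6, was higher in the CD137+ own table. Il1b and Osm are not listed in any table.

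Among the transcription factors, Cebpd, the C/EBP member induced in acute inflammation and by glucocorticoids, was lower in both low libraries than in the PDGFRα+ high ones. It stood at 81.8 FPKM in PDGFRα+ PBS, 27.1 in the own-table library labelled DEX, and 24.4 (CD137+) and 93.2 (PDGFRα+) in the between-type table. In CD137+ PBS it was 39.8 FPKM and in its own-table library labelled DEX 36.8. Cebpb (68.9 to 88.3 FPKM) and Stat3 (49.9 to 76.3 FPKM) had no such low values in any library. The feedback inhibitor gene of NF-κB, Nfkbia, stood at 68.8 and 27.4 FPKM in the PDGFRα+ own table, and Tnfaip3, another such inhibitor, at 18.9 and 8.71. Of 19 genes of this list 5 were lower in the PDGFRα+ own table and none higher (median -0.54), the glucocorticoid receptor gene Nr3c1 (30.5 and 17.6 FPKM) among them. In CD137+ cells 2 of 19 were higher in the own-table library labelled DEX, Tnfaip3 (7.33 and 16.5) and the kinase gene Pim1, a STAT target (10.2 and 30.7).

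Genes of iron uptake differed in opposite directions beside the iron-binding members. Scara5, a ferritin receptor of stromal cells, stood at 101 FPKM in CD137+ PBS, 89.5 in its own-table library labelled DEX, 66.3 in PDGFRα+ PBS, 0.794 in the PDGFRα+ own-table library labelled DEX, and 0.65 (CD137+) and 81.5 (PDGFRα+) in the between-type table, which is the split of Saa3. Tfrc, the transferrin receptor gene, was highest in the low libraries, at 38.5 and 42.6 FPKM, and stood at 4.48 and 5.61 FPKM in the high PDGFRα+ libraries and at 18.7 and 18.6 in the high CD137+ ones. The ferrireductase gene Steap3 was lower in the PDGFRα+ own table (31.8 and 7.47 FPKM), and Mmp9, whose protease binds lipocalin 2, was higher there (1.80 and 11.3). Lrp1, the receptor that clears protease-bound alpha-2-macroglobulin, varied little, from 227 to 321 FPKM. Cd163, the macrophage receptor for haptoglobin bound to haemoglobin, is not listed in any table. In all, 4 of 13 measured receptors and partners were lower and 2 higher in the PDGFRα+ own table (median -0.49), and none of 13 was apart in the CD137+ own table.

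The stromal and fat cell genes of the libraries split with the members, and their part in the members' levels was not tested. Of 12 progenitor and fibroblast markers, 10 were lower in the PDGFRα+ own-table library labelled DEX and none higher (median -2.32), among them the dermatopontin gene Dpt (106 and 4.11 FPKM) and the proteoglycan genes Lum (116 and 18.3) and Dcn (1183 and 248). Their summed level was 3343 and 4267 FPKM in the low libraries and 10462 to 15801 FPKM in the others. All 11 measured fat cell genes were lower in the same library (median -1.92), including the hormone genes Retn (16.2 and 0.915 FPKM) and Adipoq (14.7 and 1.44). Their summed level did not order the libraries as Saa3 did: it was 5264 and 3789 FPKM in the CD137+ own table, 1348 and 1487 FPKM in the high PDGFRα+ libraries, and 360 and 426 FPKM in the low ones.

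Markers of other cell types were measured beside the members, and their part in the members' levels was not tested. Of 12 macrophage markers 4 to 5 were listed, summing to 13.5 to 35.9 FPKM, while Adgre1, Itgam and Mrc1 are not listed in any table. Of 8 endothelial markers 7 to 8 were listed, summing to 10.9 to 30.8 FPKM. Among 10 hepatocyte markers, Alb, Apoa1, Ttr and 4 others are not listed, and the listed ones summed to 7.55 to 28.95 FPKM in the high libraries, most of it Cyp2e1, an enzyme gene that fat tissue also expresses. In the low libraries they summed to 0.731 and 0.458 FPKM. Of 10 mesothelial markers, all 10 were listed in the PDGFRα+ own table, 9 in the between-type table and only 4 in the CD137+ own table. The listed ones summed to 116 FPKM in PDGFRα+ PBS, 505 in its own-table library labelled DEX and 128 in the other. In CD137+ libraries they summed to 10.8 and 7.05 FPKM in the own table, over fewer genes, and to 41.1 FPKM in the between-type table. In the PDGFRα+ own table that list went both ways, with 4 of 9 measured markers higher and 2 lower (median -0.04). The higher ones were the keratin genes Krt8 (18.2 and 205 FPKM), Krt18 (17.3 and 159.6) and Krt19 (7.64 and 60.3) and the cadherin gene Cdh1 (2.24 and 45.1), and the lower ones were the mesothelin gene Msln (12.0 and 5.30) and the transcription factor gene Wt1 (44.2 and 15.9).

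Genes with the most similar pattern were sought by the mean absolute difference of centred log2 levels over the 6 libraries. The 7489 candidates were listed in all 3 tables and reached 10 FPKM in at least 1 library. They could be barely expressed in others, as Olfml1 was at 0.020 FPKM in the low CD137+ library. Nearest to the mean of the 7 members were Olfml1 (0.12), the elastin gene Eln (0.14), Serping1 (0.23), Trf (0.23), Spon1 (0.24) and Lum (0.31). Eln, for example, stood at 65.9, 59.0 and 186 FPKM in the first 3 libraries, and at 18.1 (PDGFRα+ own-table DEX label), 10.3 and 193 in the others. Single members had different neighbours. Saa3 was nearest to G0s2 (0.43), Serpina3m (0.47) and Hp (0.50), and Hp lay near Apoe (0.33) and Ifi27l2a (0.36). Lcn2 lay beside Stard10 (0.33), the enkephalin gene Penk (0.33) and the transglutaminase gene Tgm2 (0.34), all high in the 3 PDGFRα+ libraries. Serpina3n was nearest to Ndufa4l2 (0.11), the complement gene C1rb (0.14) and the retinol carrier gene Rbp4 (0.15), and A2m to Calca (0.28), the complement gene C7 (0.41) and Gdpd2 (0.63). Orm1 was nearest to fat cell genes, the glucose transporter gene Slc2a4 (0.29) and the lipid droplet gene Cidec (0.33), followed by Car5b (0.34), and Cp to Pla1a (0.13), Fgl2 (0.14) and Sbsn (0.16). The libraries share labels and processing, and the likeness says nothing of shared function.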

How the data were processed

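The authors deposited 3 tables of gene-level FPKM, with a pair of columns each, per the file headers. The submitters' processing notes name Cufflinks, Cuffdiff and mm10. For aligner, annotation and strand handling, details were not given in the sources used here. Deposited p-values and q-values come from single libraries per group and appear only as the authors' own. Columns were assigned to samples through their names. Every listed gene reached 0.386 FPKM or more in at least 1 column of its table. Depth is unknown, so no counting interval is given.

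For a symbol with several identifiers the row of higher mean was kept. Columns were scaled by the median ratio of the genes that reached 1 FPKM in both, the shift being shared equally between them, before 1 FPKM was added and log2 taken. Columns of different tables were set side by side over the genes listed in both, although the tables were normalized separately. With 1 sample per group no test was made. The members, the gene lists, the motifs and the rules for naming genes (up to 4 per list by size of difference, close copies and partners of members besides, and the nearest genes by pattern) were chosen with earlier results of these data known. Some further list members were named after their values were seen, and some genes that the rules name are not reported here. Gene models are from GENCODE M21 (GRCm38), and 50-base windows were taken from 1 transcript per gene. The alternatives were other pseudocounts, minimums, thresholds and scalings, the authors' ratios and the other column of a label. The steps were tested on simulated data. Python 3.11.15, numpy 2.4.6, pandas 2.3.3 and matplotlib 3.10.9 were used.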

Additional observations from a re-analysis of the deposited data

Results flagged for a closer look

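For 3 members the difference between the own-table library labelled DEX and PBS had opposite signs in the cell types, and these contrasts between cell types were not tested. Serpina3n differed by 0.02 log2 units in CD137+ and by -4.00 in PDGFRα+ cells, a gap of -4.02. A2m differed by 0.04 and -5.84, a gap of -5.88. Orm1 differed by -0.82 and 0.16, a gap of 0.99. With the columns labelled DEX of the between-type table the values were -2.19 and -0.05 for Serpina3n, -1.24 and 0.10 for A2m, and -4.48 and 0.18 for Orm1.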

How the results depend on the processing

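Of 90 recomputed counts and medians of the members, 75 stayed within a factor of 1.5 of the reported value (for medians, a factor of 1.5 in FPKM). Many of the 75 are counts of 0 that stayed 0, such as all 10 counts of higher members in each own table. These say little about stability. The between-type median was kept in 4 settings, moved in 5 and changed sign in 1. The choice of column mattered most. With the columns labelled DEX of the between-type table, 7 members were lower in CD137+ cells (median -2.19) and 0 in PDGFRα+ cells (median 0.24). Between the cell types, 5 members were higher and 1 lower with the CD137+ column of its own table (median 1.20). With the PDGFRα+ column of its own table, 4 were higher (median 1.53), and with both own-table columns 1 was higher and 4 lower (median -1.31). The between-type median was 4.89 with a pseudocount of 0.1 FPKM, 4.38 with a minimum of 10 FPKM, which leaves 6 members, and 4.99 with the authors' deposited log2 ratio. At 1.5-fold 1 member, Orm1, was lower in the CD137+ own table. Why the columns of a label differ was not tested. No paired analysis was possible because each group has 1 sample, which also leaves no replicate to leave out.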

Other observations

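Some genes of the acute-phase list did not follow the split of Saa3. Il1rn, which encodes the interleukin 1 receptor antagonist, stood at 13.0 and 11.9 FPKM in the CD137+ own table, 0.656 FPKM in PDGFRα+ PBS and 4.25 in its own-table library labelled DEX, and 7.81 (CD137+) and 0.490 (PDGFRα+) in the between-type table. Hpx, whose product hemopexin binds free haem, stood at 15.7 and 12.6 FPKM in the CD137+ own table and at 0.488 to 1.14 FPKM in the other 4 libraries.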
